A study of Mus musculus with 8 samples.

Results

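Chaperones are the proteins that help other proteins fold. The 42 genes described here code for chaperones and their helpers. They fall into a heat shock class of 21 genes of the cytosol and mitochondria and an endoplasmic reticulum (ER) class of 21 genes of the unfolded protein response. The rule lists the genes by name and uses no measured value, and the list was drawn up with earlier results of these data known. Among the probe sets annotated to a gene alone, the brightest on average stood for that gene. Such a probe set was found for 40 of the 42 genes, since Hsp90ab1 and Hsf1 were not analysed here. Hspa1a and Dnajb4 lay under the filter on low signal, so 38 members, 17 of the heat shock class and all 21 of the ER class, were among the 8908 genes tested of 18193 genes with a probe set.

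The series holds 8 expression arrays of RAW 264.7, a mouse macrophage cell line, with 2 arrays in each of 4 groups. Cells of group C received the control treatment, group M received menthol for 1 h, group LPS received 100 ng/ml of lipopolysaccharide (LPS, which sits on the surface of bacteria and activates macrophages) for 6 h, and group LPS+M received menthol for 1 h and then the same LPS for 6 h. The labels give no dose of menthol, and no time of harvest for groups C and M, so time after the start of treatment and agent cannot be told apart where those groups are compared with groups that received LPS. Nor do the labels say that C and M were harvested at the same time, so time may differ in M compared to C as well. All arrays come from 1 cell line in culture. The labels call the replicates biological but do not say that they came from separate cultures, so every p-value reflects the scatter among these arrays and no more, and that scatter may be technical. RNA was taken from whole cultures, in which fewer cells of a kind and less RNA per cell cannot be told apart. Over all probe sets, replicate arrays of each group correlated at 0.999. All 10 macrophage marker genes lay above the filter, with group means between 12.1 and 12.2 on the log2 scale, and 0 of the 12 markers of T cells, B cells, epithelium and fibroblasts on the array did, with group means between 2.57 and 3.14.

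In the cytosol, proteins of the HSP70 family bind exposed stretches of unfolded proteins and release them in cycles driven by ATP, while J-domain proteins start the cycle and nucleotide exchange factors such as the HSP110 proteins end it. Heat and other proteotoxic stress activate heat shock factor 1, which binds heat shock elements (repeats of nGAAn in alternating orientation) in the promoters of these genes. In the ER, unfolded proteins are sensed by IRE1 (coded by Ern1), ATF6 and PERK. IRE1 splices the mRNA of Xbp1, ATF6 is cut to give a transcription factor, and both pathways raise the genes of ER chaperones and of ER-associated degradation (ERAD), which returns misfolded proteins to the cytosol for destruction. PERK slows translation and raises the factors Atf4 and Ddit3. Macrophages secrete cytokines through the ER, and IRE1 and Xbp1 are known to be engaged in them by Toll-like receptors.

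The promoter sequences of the members give the letters that these factors are known to bind. RefSeq promoter windows of build GRCm38.p6, each with 250 bases before and 50 bases after a transcription start, were matched to 15 members of the heat shock class and 18 of the ER class. The heat shock element was searched as GAANNTTC or TTCNNGAA, the ER stress element as CCAAT followed after 9 free bases by CCACG, and the core bound by XBP1 as ACGTG, each on both strands. Other forms or spacings of these elements were not searched, so a window without a match, such as that of Herpud1 for the ER stress element, may still hold one. Matches of the heat shock element may overlap each other, and in the windows of the members 0 cores overlapped an ER stress element. The following stretches are the 150 bases before the start, on the strand of the gene, with every match in capitals. Hspa1b and Hspe1 show the heat shock element in a gene that was called and in one that was not, Hspa5 and Syvn1 the ER stress element, and Dnajb9 and Herpud1 the core. They lie at chr17:34959239-34959388 on the minus strand for Hspa1b, chr1:55087998-55088147 on the plus strand for Hspe1, chr2:34771940-34772089 on the plus strand for Hspa5, chr19:6046426-6046575 on the plus strand for Syvn1, chr12:44210069-44210218 on the minus strand for Dnajb9 and chr8:94386279-94386428 on the plus strand for Herpud1.
Hspa1b: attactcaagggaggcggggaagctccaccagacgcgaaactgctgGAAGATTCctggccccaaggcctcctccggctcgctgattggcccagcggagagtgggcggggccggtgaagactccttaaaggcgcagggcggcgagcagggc
Hspe1: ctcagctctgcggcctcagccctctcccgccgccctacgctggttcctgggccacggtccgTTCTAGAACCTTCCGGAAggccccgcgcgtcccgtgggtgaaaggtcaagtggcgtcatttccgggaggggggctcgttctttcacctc
Hspa5: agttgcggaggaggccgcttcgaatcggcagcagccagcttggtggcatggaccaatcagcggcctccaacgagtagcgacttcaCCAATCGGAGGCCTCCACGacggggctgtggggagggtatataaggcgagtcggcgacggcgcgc
Syvn1: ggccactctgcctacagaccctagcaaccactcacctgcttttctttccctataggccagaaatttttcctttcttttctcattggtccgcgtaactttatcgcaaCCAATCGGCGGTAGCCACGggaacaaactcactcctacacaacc
Dnajb9: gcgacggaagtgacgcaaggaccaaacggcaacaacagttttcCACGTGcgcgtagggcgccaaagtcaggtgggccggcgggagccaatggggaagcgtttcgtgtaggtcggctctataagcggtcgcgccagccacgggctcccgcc
Herpud1: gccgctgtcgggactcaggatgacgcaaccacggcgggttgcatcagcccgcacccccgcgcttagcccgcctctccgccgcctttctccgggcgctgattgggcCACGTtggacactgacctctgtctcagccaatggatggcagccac

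The heat shock element was present in 9 of the 15 heat shock members with a window (60%) and in 0 of the 18 ER members, against 16.97% of the 27025 genes with a window. The 9 were Hspa1a, Hspa1b, Hsph1, Hspd1, Hspe1, Dnaja1, Dnajb4, Bag3 and Chordc1. In Hspe1 the matches formed a run of 3, and a window of Hspd1, which lies beside Hspe1 in the opposite direction, held the same run. The ER stress element was present in 8 of the 18 ER members (44.4%), namely Hspa5, Hsp90b1, Dnajc3, Creld2, Pdia6, Calr, Canx and Syvn1, and in 0 of the 15 heat shock members, against 0.137% of all genes. The core was found in 7 heat shock members and in 6 ER members, Hspa5, Dnajb9, Dnajc3, Pdia6, Calr and Herpud1, against 21.8% of all genes. None of these letters stood in the windows of Hspa4l, Ern1 and Xbp1. A match describes the window only.

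Of the 38 tested members, 6 were called in at least 1 of the 6 pairwise comparisons, namely Hspa1b, Hspa4l and Hsph1 of the heat shock class and Dnajb9, Ern1 and Herpud1 of the ER class. The share of all genes called in at least 1 comparison was not computed, so this count has no background beside it. A gene was called at a limma p-value below 0.05 after Benjamini-Hochberg adjustment over all 8908 genes and a fold change of at least 1.5. In M compared to C, 2 of 17 heat shock members and 2 of 21 ER members rose and 0 fell, while 3.01% of all genes tested were called higher and 1.54% lower. With LPS alone (LPS compared to C), limma called 0 members of either class, against 3.17% of all genes called higher and 2.96% lower. In that comparison 4 heat shock and 4 ER members had an unadjusted limma p below 0.05, beside 3093 of all 8908 genes tested. The methods' t-test called 0 members there, with or without adjustment.

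When menthol preceded LPS (LPS+M compared to LPS), 1 heat shock member and 1 ER member rose and 0 fell, against 4.22% of all genes called higher and 2.49% lower. When LPS followed menthol (LPS+M compared to M), 1 ER member rose, against 2.39% of all genes higher and 1.77% lower. Limma called 0 heat shock members there, of which 4 had an unadjusted p below 0.05, beside 2581 of all 8908 genes. Between the single treatments (LPS compared to M), 1 heat shock member fell, against 4.59% of all genes higher and 6.70% lower. Limma called 0 ER members there, of which 9 had an unadjusted p below 0.05, beside 4274 of all 8908 genes. With both agents (LPS+M compared to C), 2 members of each class rose and 0 fell, against 5.53% of all genes called higher and 4.30% lower. With 17 and 21 genes in the classes, counts of 1 or 2 differ from these shares by at most 2 genes. The map of all 38 members by array shows where these changes lie.

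**Figure D1:**
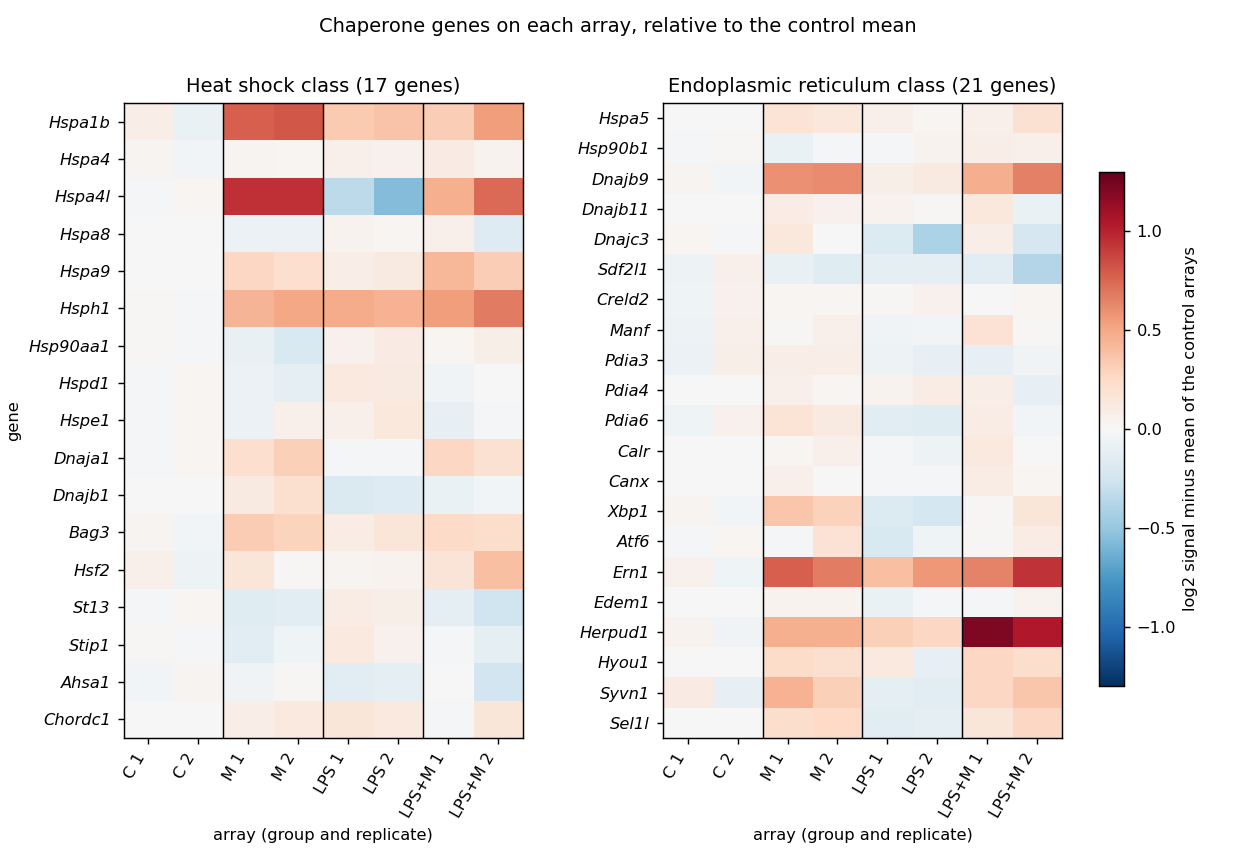
Each cell is the log2 signal of a gene (rows) on an array (columns, by group and replicate) minus the mean of the 2 control arrays, for the 17 heat shock and 21 ER members tested. Red marks higher and blue lower values: Hspa4l and Hspa1b are highest on the M arrays, Herpud1 on the LPS+M arrays, and most rows of both classes stay near 0.

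Of the HSP70 and HSP110 proteins, Hspa4l, a member of the HSP110 family, changed in the most comparisons. Its log2 signal was 7.49 and 7.53 on the C arrays, 8.46 and 8.46 on the M arrays, 7.17 and 6.95 on the LPS arrays, and 7.97 and 8.25 on the LPS+M arrays. The 4 groups did not overlap: the M arrays were highest, followed by the LPS+M arrays and then the C arrays, and the LPS arrays were lowest. Hspa4l rose 1.93-fold in M compared to C (log2 0.95 ± 0.11 SE, limma adjusted p = 0.0013) and 2.07-fold in LPS+M compared to LPS (1.05 ± 0.11, limma adjusted p = 0.000531). It was 2.64-fold lower in LPS than in M (-1.40 ± 0.11, limma adjusted p = 6.01e-05) and 1.51-fold higher in LPS+M than in C (0.60 ± 0.11, limma adjusted p = 0.00389). In LPS compared to C its difference of -0.45 ± 0.11 passed the adjusted p alone (0.0201, limma) and stayed under the fold minimum.

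Of the 5 probe sets of Hspa4l, 4 lay above the filter. In M compared to C they gave log2 differences of 0.95, 0.63, 0.37 and 0.53, and in LPS+M compared to LPS 1.05, 0.83, 0.44 and 0.66. All 4 were higher with menthol in both settings, by unequal amounts. In LPS compared to C they gave -0.45, -0.30, 0.19 and 0.05 in the same order, so they disagree in direction there. In LPS compared to M they gave -1.40, -0.93, -0.17 and -0.49. Averaged over all probe sets of the gene, the difference between M and C was 0.57, under the fold minimum. With the brightest probe set not marked by name as sharing sequences, it was 0.63 with a limma adjusted p of 0.0593. That p was at the upper end of the range of 0.000242 to 0.0593 over 18 alternatives other than the methods' t-test. In LPS+M compared to C, the call of Hspa4l was lost under the same alternatives (0.58 and 0.53) and without C replicate 1 (0.58) or LPS+M replicate 2 (0.46).

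Hspa1b codes for an inducible HSP70 protein, the classical product of the heat shock response. Its log2 signal was 5.00 and 4.84 in C, 5.70 and 5.72 in M, 5.25 and 5.29 in LPS, and 5.24 and 5.46 in LPS+M. The M arrays were highest and the C arrays lowest, and the arrays of LPS and LPS+M overlapped in between. Hspa1b rose 1.73-fold in M compared to C (0.79 ± 0.09, limma adjusted p = 0.00137). Its differences in LPS compared to C (0.35 ± 0.09) and LPS+M compared to C (0.43 ± 0.09) passed the adjusted p alone, whereas LPS+M and LPS were 0.08 ± 0.09 apart, with a 95% interval on both sides of 0. The signal of Hspa1b lay close to the filter of 4.84, and these values rest on 1 of its 3 probe sets. The other pair had means of 4.17 and 3.83, under the filter, and gave 0.54 and 0.23 in M compared to C, 0.00 and 0.07 in LPS compared to C, and 0.34 and 0.08 between LPS+M and LPS. For the first of this pair the menthol differences without and with LPS lay closer together than for the probe set used.

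Hspa1a, the neighbouring copy, read 2.56 to 2.61 on all 8 arrays, at the low end of the scale. Both copies code for near-identical proteins, and which of them the Hspa1b probe set read is uncertain and was not tested. Their promoter windows differ at 4 of 300 bases.

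Hsph1, which codes for HSP105, a further HSP110 protein, read 10.92 and 10.88 in C, 11.35 and 11.41 in M, 11.38 and 11.35 in LPS, and 11.44 and 11.58 in LPS+M. Every treated array lay above both C arrays, and the arrays of M and LPS overlapped. The gene rose 1.52-fold in LPS+M compared to C (0.61 ± 0.07, limma adjusted p = 0.00044), a call that was lost without LPS+M replicate 2 (0.54) and where its probe sets were averaged (0.55). The differences in M compared to C (0.47 ± 0.07, limma adjusted p = 0.00321) and LPS compared to C (0.46 ± 0.07, limma adjusted p = 0.00258) passed the adjusted p alone. LPS differed from M by -0.01 ± 0.07, and LPS+M from LPS by 0.14 ± 0.07.

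Hspa8, the constitutive HSP70 protein, read between 14.37 and 14.60 on all 8 arrays with the probe set used, and its differences between groups lay between -0.09 and 0.11. Its 3 other probe sets above the filter differed more, with 0.20, 0.40 and 0.77 between LPS and M and 0.13, 0.20 and 0.55 between LPS and C. The probe set at 0.77, the dimmest of them, passed the call rule between LPS and M (limma adjusted p = 0.0105 in a fit over all probe sets above the filter). Hspa4, also of the HSP110 family, depended on the probe set. The probe set with the highest mean read between 13.52 and 13.66 on the 8 arrays and differed by 0.03 ± 0.06 between M and C. The other probe sets above the filter, a pair, were lower on all 4 arrays with menthol. The first read 10.20 and 10.15 in C, 9.44 and 9.38 in M, 10.23 and 10.22 in LPS, and 9.19 and 9.31 in LPS+M.

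The second read 9.07 and 9.04 in C, 8.32 and 8.28 in M, 9.18 and 9.16 in LPS, and 8.04 and 8.02 in LPS+M. In a fit over all probe sets above the filter, both fell by 0.76 in M compared to C (limma adjusted p = 0.00127 and 0.000799) and by 0.98 and 1.14 in LPS+M compared to LPS (limma adjusted p = 0.000381 and 0.000175). The gene was not called by the rule used for the members, and its probe sets disagree in direction. Which of them follows the transcript of Hspa4 was not tested.

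**Figure D2:**
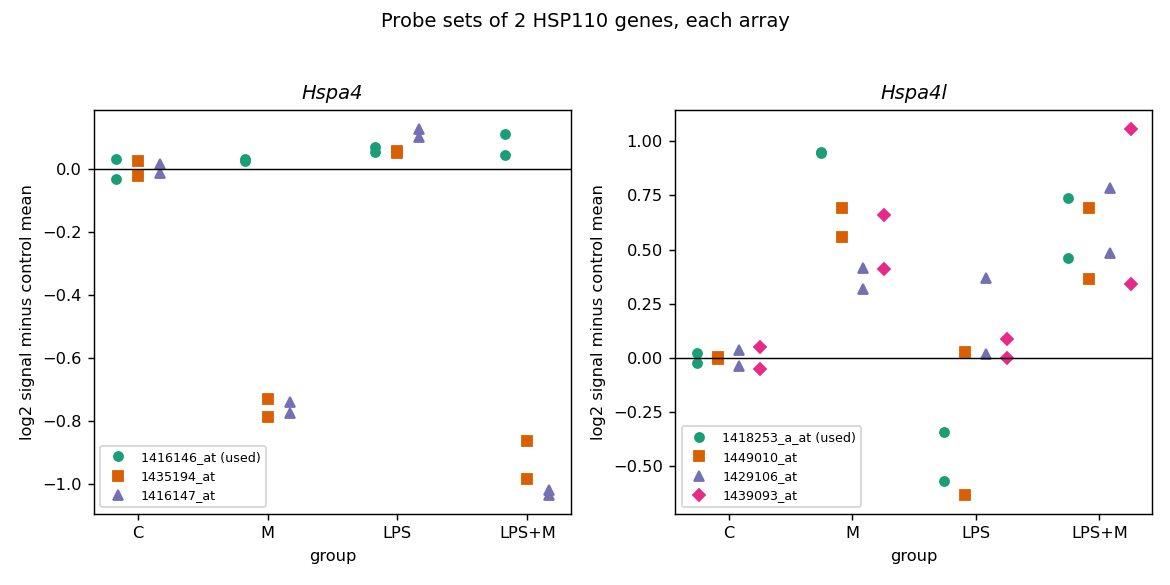
Points are single arrays of the probe sets above the filter for Hspa4 (left) and Hspa4l (right), as log2 signal minus the mean of the 2 control arrays, by group; "used" marks the probe set with the highest mean. The used probe set of Hspa4 stays near 0 while the other probe sets fall by 0.76 in M, and all 4 probe sets of Hspa4l lie above the controls in M and LPS+M.

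Among the partners of HSP70 are Dnaja1 and Dnajb1, J-domain proteins of the cytosol, and Bag3, a nucleotide exchange factor that links HSP70 to autophagy. With the probe sets used, these 3 genes were not called in any comparison. Bag3 read 8.93 and 8.85 in C, 9.22 and 9.18 in M, 8.98 and 9.05 in LPS, and 9.14 and 9.12 in LPS+M. Both M arrays lay above every other array, and both C arrays lay below every treated array. Its difference between M and C was 0.31 ± 0.06 (limma adjusted p = 0.0109), under the fold minimum. Dnaja1 differed by 0.26 ± 0.06 between M and C (limma adjusted p = 0.0235) and by 0.25 ± 0.06 between LPS+M and LPS (limma adjusted p = 0.0227), again under the fold minimum.

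The 3 probe sets of Dnaja1 did not run the same way, since the other pair gave -0.21 and -0.11 between M and C. Between LPS+M and LPS this pair gave -0.45 and -0.19 (limma adjusted p = 0.0422 and 0.097 in a fit over all probe sets above the filter). For Dnajb1 the used probe set differed by 0.16 ± 0.06 and the other by 0.41 between M and C, and by 0.11 ± 0.06 and 0.76 between LPS+M and LPS. The other probe set also gave -0.77 between LPS and M, where the used one gave -0.34. In a fit over all probe sets above the filter, the other probe set passed the call rule in LPS+M compared to LPS (limma adjusted p = 0.00163). It also passed in LPS compared to M (limma adjusted p = 0.000815). St13, which codes for the HSP70-interacting protein HIP, ran the other way, with -0.15 ± 0.07 between M and C and -0.27 ± 0.07 between LPS+M and LPS (limma adjusted p = 0.0186). That difference rests on the probe set used, since the other above the filter gave 0.06 and -0.03. Dnajb4, a further J-domain protein, read 3.70 to 4.15, under the filter, and has no call.

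HSP90 completes the folding of kinases and hormone receptors with the help of cochaperones. Hsp90aa1, the inducible cytosolic HSP90, differed by -0.15 ± 0.06 between M and C and by 0.08 ± 0.06 between LPS and C. Stip1, which carries clients from HSP70 to HSP90, differed by -0.10 ± 0.07 and 0.09 ± 0.07 in these comparisons, Ahsa1, an activator of the HSP90 ATPase, by -0.02 ± 0.09 and -0.13 ± 0.09, and Chordc1, a further HSP90 partner, by 0.11 ± 0.07 and 0.14 ± 0.07. None of the 4 was called in any comparison. Hsf2, a heat shock factor, read 4.74 to 5.20, just above the filter, and its highest difference was 0.28 ± 0.09 in LPS+M compared to C (limma adjusted p = 0.051).

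In mitochondria, HSP60 (Hspd1) and HSP10 (Hspe1) form the chaperonin, and mortalin (Hspa9) is the HSP70 of the matrix. Hspd1 and Hspe1 share the promoter region shown above, and neither was called. Hspd1 read 14.11 and 14.16 in C, 14.05 and 14.02 in M, 14.25 and 14.25 in LPS, and 14.08 and 14.13 in LPS+M. The LPS arrays were highest and the M arrays lowest for this gene, and LPS differed from M by 0.22 ± 0.06 (limma adjusted p = 0.0213). Hspa9 differed by 0.24 ± 0.06 in M compared to C (limma adjusted p = 0.0307), by 0.28 ± 0.06 in LPS+M compared to LPS and by 0.38 ± 0.06 in LPS+M compared to C, all under the fold minimum. Its other probe sets above the filter gave 0.15 and 0.00 in M compared to C. In LPS+M compared to LPS they gave 0.07 and 0.12, and in LPS+M compared to C 0.17 and 0.09.

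The sensors and factors of the ER class were led by Ern1, which codes for the sensor IRE1. Its log2 signal was 7.49 and 7.39 in C, 8.22 and 8.11 in M, 7.83 and 8.0 in LPS, and 8.09 and 8.38 in LPS+M. Every treated array lay above both C arrays, the LPS arrays lay below those with menthol, and M and LPS+M overlapped. Ern1 rose 1.65-fold in M compared to C (0.72 ± 0.11, limma adjusted p = 0.00377) and 1.73-fold in LPS+M compared to C (0.79 ± 0.11, limma adjusted p = 0.00115). Its difference in LPS compared to C (0.48 ± 0.11, limma adjusted p = 0.0172) passed the adjusted p alone. Only 1 of the 5 probe sets of Ern1 lay above the filter.

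Xbp1, the factor whose mRNA IRE1 splices, read 12.58 and 12.52 in C, 12.91 and 12.86 in M, 12.37 and 12.32 in LPS, and 12.57 and 12.71 in LPS+M. The M arrays were highest and the LPS arrays lowest, and C and LPS+M overlapped. Its differences of 0.33 ± 0.07 in M compared to C (limma adjusted p = 0.0144), 0.29 ± 0.07 in LPS+M compared to LPS (limma adjusted p = 0.0183) and -0.54 ± 0.07 between LPS and M (limma adjusted p = 0.000819) stayed under the fold minimum with the probe set used. Of its 3 other probe sets above the filter, a pair passed the call rule between LPS and M, with -0.77 and -0.61 (limma adjusted p = 0.000774 and 0.000696 in the fit over all probe sets), and the third gave -0.11. In the same order they gave -0.43, -0.29 and 0.11 between LPS and C, and 0.56, 0.44 and -0.04 between LPS+M and LPS. Splicing of the mRNA was not analysed here. Atf6 differed by 0.09 ± 0.09 in M compared to C and 0.19 ± 0.09 in LPS+M compared to LPS with the probe set used. Its other probe sets above the filter gave 0.23 and 0.31 in M compared to C, and 0.68 and 0.42 in LPS+M compared to LPS. In the latter comparison the first passed the call rule (limma adjusted p = 0.00664 in the fit over all probe sets). The second passed the adjusted p alone there (limma adjusted p = 0.0201).

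Of the chaperones and cochaperones of the ER, Dnajb9 was the member that was called. Dnajb9 codes for ERdj4, a J-domain protein of the ER and a known target of XBP1. It read 10.27 and 10.19 in C, 10.82 and 10.84 in M, 10.30 and 10.35 in LPS, and 10.70 and 10.88 in LPS+M. The 4 arrays with menthol lay above the 4 without, and M and LPS+M overlapped. Dnajb9 rose 1.52-fold in M compared to C (0.60 ± 0.08, limma adjusted p = 0.00207), close to the fold minimum, and the call was lost without C replicate 2 (0.56).

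Dnajb9 in LPS+M compared to LPS differed by 0.47 ± 0.08 (limma adjusted p = 0.00384), and in LPS compared to C by 0.10 ± 0.08. It differed in LPS+M compared to C by 0.56 ± 0.08, under the fold minimum, and it passed the minimum there without C replicate 1 (0.60) or LPS+M replicate 1 (0.66).

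Hspa5, which codes for BiP, the HSP70 of the ER and the usual readout of the unfolded protein response, was not called. It read 14.64 and 14.62 in C, 14.81 and 14.77 in M, 14.70 and 14.66 in LPS, and 14.70 and 14.83 in LPS+M. The M arrays lay above the C arrays by 0.16 ± 0.07 (limma adjusted p = 0.125), with a 95% interval of 0.01 to 0.31, and LPS and LPS+M overlapped. These values rest on the probe set used, since the other probe sets of Hspa5 above the filter gave 0.09 and -0.17 between M and C. Hsp90b1 (GRP94) differed by -0.05 ± 0.06 in M compared to C and Hyou1 (GRP170) by 0.22 ± 0.08. Dnajb11, Dnajc3, Sdf2l1, Creld2 and Manf, further cochaperones and secreted folding factors of the ER, differed by between -0.13 and 0.08 in that comparison. The other probe sets of Dnajc3 above the filter gave -0.21, 0.15 and -0.39, against 0.07 with the one used. Over the 9 genes of this role, the differences in M compared to C had a median of 0.07 and ran from -0.13 to 0.60.

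The disulfide isomerases Pdia3, Pdia4 and Pdia6 and the lectin chaperones Calr (calreticulin) and Canx (calnexin), which fold glycoproteins, were not called in any comparison. Their 5 differences lay between 0.04 and 0.15 in M compared to C, between -0.08 and 0.18 in LPS+M compared to LPS, and between -0.30 and 0.03 in LPS compared to M. Pdia6 gave the lowest of these, -0.30 ± 0.07 (limma adjusted p = 0.0135), with 11.88 and 11.86 on the LPS arrays against 12.19 and 12.14 on the M arrays. Calr lay between 13.93 and 14.13 on all 8 arrays and Canx between 13.99 and 14.11.

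Of the 4 ERAD members, Herpud1 was called in the most comparisons. Herpud1 codes for an ER membrane protein of the degradation complex. Its log2 signal was 9.07 and 8.98 in C, 9.48 and 9.49 in M, 9.34 and 9.29 in LPS, and 10.24 and 10.07 in LPS+M. The 4 groups did not overlap, with the LPS+M arrays highest and the C arrays lowest. Herpud1 rose 1.79-fold in LPS+M compared to LPS (0.84 ± 0.07, limma adjusted p = 0.000308), 1.59-fold in LPS+M compared to M (0.67 ± 0.07, limma adjusted p = 0.000989) and 2.19-fold in LPS+M compared to C (1.13 ± 0.07, limma adjusted p = 3.21e-05).

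In M compared to C (0.46 ± 0.07, limma adjusted p = 0.00514) and LPS compared to C (0.29 ± 0.07, limma adjusted p = 0.0293) Herpud1 passed the adjusted p alone. Its other probe set gave 0.37, 0.15 and 0.80 in M compared to C, LPS compared to C and LPS+M compared to LPS. Without LPS+M replicate 1 the difference between LPS+M and M was 0.58, under the fold minimum.

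With the probe sets used, Syvn1 (HRD1, the ubiquitin ligase of ERAD) and Sel1l, its partner, were higher on each of the 4 arrays with menthol than on the arrays without it at the same LPS status, and neither was called. Syvn1 read 9.88 and 9.66 in C, 10.22 and 10.08 in M, 9.65 and 9.64 in LPS, and 10.04 and 10.14 in LPS+M, and Sel1l read 10.26 and 10.25, 10.49 and 10.52, 10.11 and 10.12, and 10.41 and 10.52 in the same order. Syvn1 differed by 0.38 ± 0.09 in M compared to C (limma adjusted p = 0.0205), and LPS+M exceeded LPS by 0.45 ± 0.09 (limma adjusted p = 0.00883). Sel1l differed by 0.25 ± 0.06 (limma adjusted p = 0.0276) and 0.35 ± 0.06 (limma adjusted p = 0.00544). The other probe sets of Sel1l above the filter gave 0.33, 0.26 and 0.05 in M compared to C. In LPS+M compared to LPS they gave 0.03, 0.26 and 0.00. Edem1, a lectin that hands misfolded glycoproteins to ERAD, differed by 0.04 ± 0.06 and 0.06 ± 0.06 in these comparisons.

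**Figure D3:**
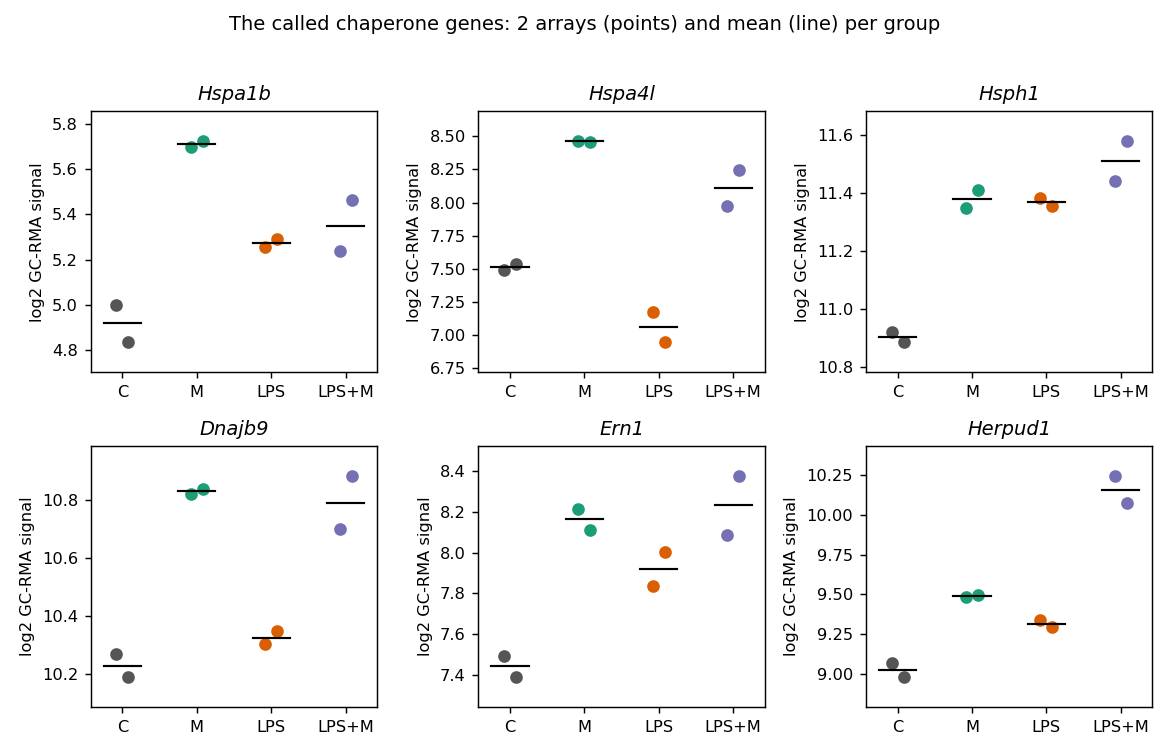
Points are the log2 signals of the 2 arrays of each group and lines their means, for the 6 called members; each panel has its own vertical axis, which does not start at 0. The M arrays of Hspa4l (8.46 and 8.46) lie above all others, while Herpud1 is highest on the LPS+M arrays (10.24 and 10.07).

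By the adjusted p alone, with no fold minimum, 6 heat shock members (Hspa1b, Hspa4l, Hspa9, Hsph1, Dnaja1 and Bag3) and 6 ER members (Dnajb9, Xbp1, Ern1, Herpud1, Syvn1 and Sel1l) were higher in M than in C and 0 were lower, while 13.1% of all genes tested passed higher and 8.63% lower. In LPS compared to C, 2 heat shock members (Hspa1b and Hsph1) and 2 ER members (Ern1 and Herpud1) were higher and Hspa4l was lower, against 9.13% of all genes higher and 12.6% lower. For menthol before LPS (LPS+M compared to LPS), 3 heat shock members (Hspa4l, Hspa9 and Dnaja1) and 5 ER members (Dnajb9, Xbp1, Herpud1, Syvn1 and Sel1l) were higher and St13 was lower, against 17.3% of all genes higher and 11.4% lower. Between LPS and M, 3 heat shock members were higher and 5 lower, and 0 ER members were higher and 6 lower, against 14.4% and 24.3% of all genes. These counts rest on the probe set used for each gene, and other probe sets of some of these genes differed, as given above.

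The middle values of the classes were alike in M compared to C and lay further apart in the other comparisons below. In M compared to C the median log2 difference was 0.09 in the heat shock class and 0.09 in the ER class, beside 0.02 over all genes tested. The medians for LPS+M compared to LPS were 0.02 and 0.14, beside 0.03. For LPS compared to C they were 0.09 and -0.04, beside -0.03, and between LPS and M they were -0.01 and -0.17, beside -0.06. The heat shock medians depended on single arrays. With each array left out in turn, that of M compared to C ran from 0.03 (without C replicate 2) to 0.11, that of LPS+M compared to LPS from 0.01 to 0.05 (without LPS+M replicate 2), and that between LPS and M from -0.02 to 0.02. The ER medians ran from 0.07 to 0.11, from 0.10 to 0.17 and from -0.17 to -0.13 in these comparisons, and from -0.04 to -0.01 between LPS and C (-0.02 without C replicate 1 and -0.01 without C replicate 2). In M compared to C, 10 of 17 heat shock members and 19 of 21 ER members had a difference above 0, beside 4863 of all 8908 genes tested.

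**Figure D4:**
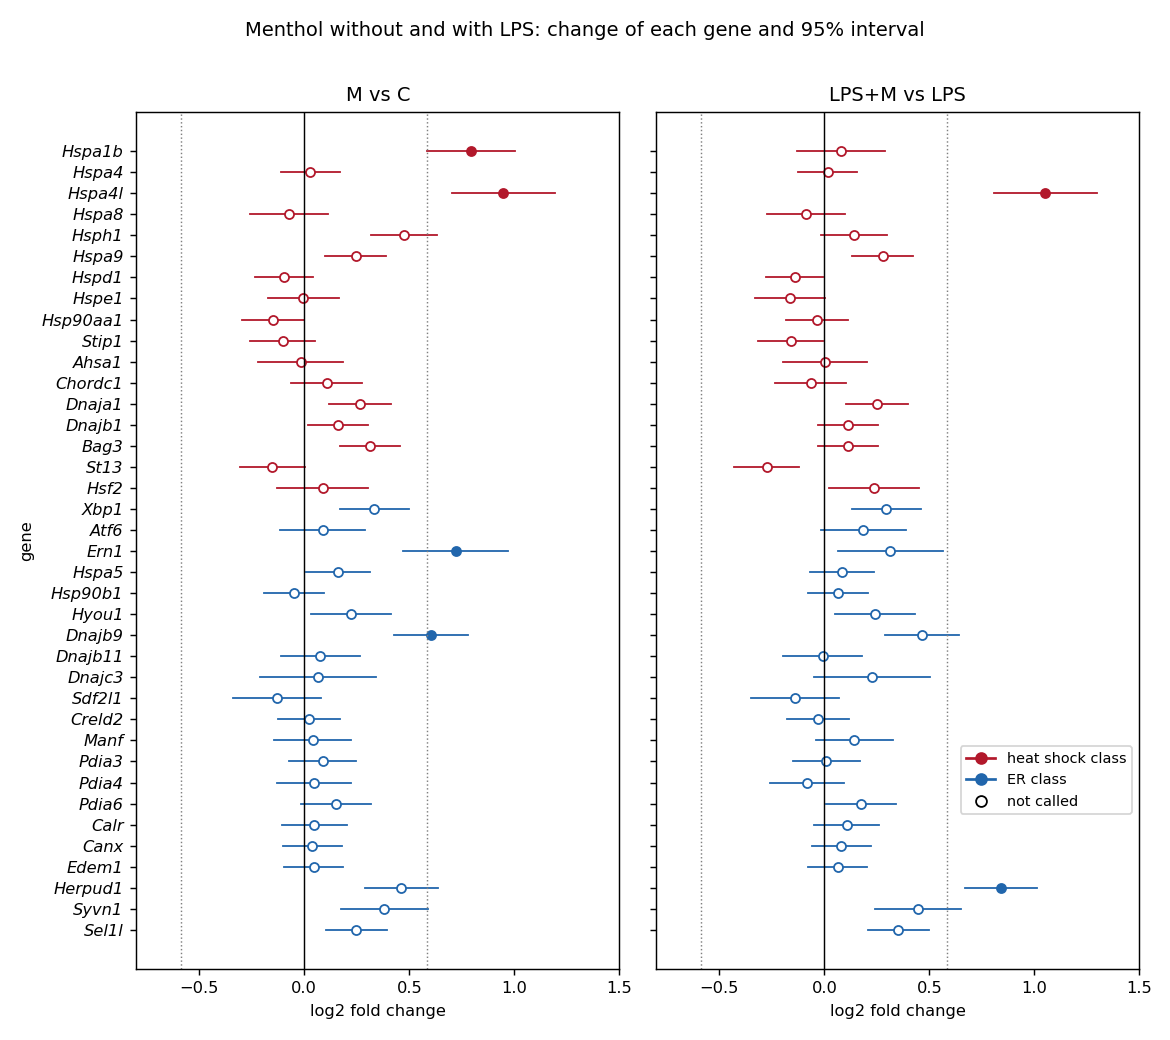
Points are log2 fold changes of the 38 tested members and lines their 95% intervals from limma, in M compared to C (left) and LPS+M compared to LPS (right); dotted lines mark the 1.5-fold minimum and filled points the called genes. Hspa4l stands at 0.95 and 1.05, whereas Hspa1b, read by 1 probe set near the filter, stands at 0.79 on the left and 0.08 on the right.

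Menthol was compared without LPS (M compared to C) and with LPS (LPS+M compared to LPS) on separate arrays. Of the 38 members, 25 were higher in both and 7 lower in both, which is 84.2% with the same direction, beside 79.1% of all genes tested. The correlation of the log2 differences across the 38 genes was 0.76, beside 0.78 across all genes. Genes are not independent replicates, and this is a description. LPS was likewise compared without menthol (LPS compared to C) and with it (LPS+M compared to M) on separate arrays, and 25 of 38 members (65.8%) had the same direction, beside 75.1% of all genes. The correlation here was 0.49 across the 38 members and 0.82 across all genes.

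The interaction asks whether LPS changed a gene by a different amount with menthol than without. Limma called 0 members of either class, against 0.0337% of all genes called higher and 0.202% lower. Beside 892 of all 8908 genes, 2 heat shock and 2 ER members had an unadjusted p below 0.05. These were Hspa1b (-0.71 ± 0.13, limma adjusted p = 0.106), Hsph1 (-0.33 ± 0.10, limma adjusted p = 0.27), Ern1 (-0.41 ± 0.15, limma adjusted p = 0.4) and Herpud1 (0.38 ± 0.11, limma adjusted p = 0.255). For Hspa1b the LPS difference was 0.35 without menthol and -0.36 with it, and its other probe sets, under the filter, gave interactions of -0.20 and -0.15. The LPS difference was 0.46 without menthol and 0.13 with it for Hsph1, 0.48 and 0.07 for Ern1, and 0.29 and 0.67 for Herpud1, and no interaction of the 4 passed the threshold. Without LPS+M replicate 2 the value for Hspa1b was -0.83 with a limma adjusted p of 0.0475, at the lower end of the range of 0.0475 to 0.348 over 15 alternatives other than the methods' t-test.

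The members that hold the elements of the promoter windows were set beside those with no match to the forms searched. In M compared to C, 3.01% of all genes tested were called higher, and 3102 of 8908 had an unadjusted limma p below 0.05. Counts of 0 to 2 called in groups of 6 to 10 genes cannot tell the groups apart. Of 7 tested heat shock members with a heat shock element, 1 rose in M compared to C (Hspa1b), with a median of 0.26 and a range of -0.10 to 0.79, and of 6 without it, 1 rose (Hspa4l), with a median of 0.06 and a range of -0.10 to 0.95. Of 8 ER members with an ER stress element, 0 were called by limma in M compared to C and 2 had an unadjusted p below 0.05, with a median of 0.06 and a range of -0.05 to 0.38. Of 10 ER members without it, 2 rose (Dnajb9 and Ern1), with a median of 0.17 and a range of -0.13 to 0.72. The highest of the 8 was Syvn1, whose element is printed above.

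Other genes of the same pathways, in lists chosen with earlier results known, were described by their counts. In the PERK branch and the integrated stress response, 8 of 17 tested genes rose in M compared to C and 0 fell, beside 3.01% and 1.54% of all genes, with a median of 0.50. The largest rises were those of Trib3 (1.91), a pseudokinase induced by Ddit3, Gadd45a (1.28), a stress-induced growth arrest gene, Atf5 (1.25), a factor of the pathway, and Nupr1 (1.10), a stress-induced chromatin protein. In LPS+M compared to LPS, 9 of the 17 rose and 0 fell, beside 4.22% and 2.49% of all genes, with a median of 0.68, and Trib3 differed by 2.58 and Chac1, which degrades glutathione, by 1.92. In LPS compared to C, 1 rose (Cebpb, 0.68) and 2 fell (Trib3, -0.77, and Chac1, -0.60), beside 3.17% and 2.96%.

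Of 48 other genes of ER folding, glycosylation and degradation, 2 rose in M compared to C and in LPS+M compared to LPS, and 0 fell, which for the rises is 4.17% beside 3.01% and 4.22% of all genes. They were Crebrf (1.08 and 0.82), a regulator of the CREB3 factors, and Ero1a (0.84 and 1.07), the oxidase that recharges the disulfide isomerases. Serp1, a translocon protein, rose in LPS compared to C (0.87). The median of this list was 0.13 in M compared to C. Of 25 other cytosolic chaperones, cochaperones and small heat shock proteins, 1 (Dnajb2, a J-domain protein, 0.75 and 0.72) rose in M compared to C and in LPS+M compared to LPS, with medians of -0.01 and 0.06. Limma called 0 of the 14 genes of the CCT chaperonin and prefoldin, which fold actin and tubulin, in any comparison, with medians between -0.11 and 0.11 and between 0 and 5 genes at an unadjusted p below 0.05. Of 11 mitochondrial chaperones and proteases, Htra2, a protease, rose in LPS compared to M (0.67), and limma called 0 in the other comparisons, with between 0 and 3 genes at an unadjusted p below 0.05. Over all 8908 genes tested, between 892 (interaction) and 4274 (LPS compared to M) had an unadjusted p below 0.05.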

How the data were processed

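RNA of RAW 264.7 cells was read on 8 Affymetrix mouse arrays. The deposited values are log2 signals that the authors made with GCRMA (version 2.10.0) under R (version 2.6.1), per the submitters' notes. GC-RMA corrects background by probe sequence, normalises quantiles across arrays and summarises each probe set, so a shift shared by all genes is removed. Groups came from the sample labels, and no array was dropped or imputed. In R 4.3.3, limma 3.58.1 (lmFit, eBayes) was fitted to all 8 arrays with 1 coefficient per group, leaving 4 residual degrees of freedom. Of 45101 probe sets, 34945 had 1 symbol in the platform annotation. Each gene took its brightest probe set on average, and genes over the grand mean of 4.84 were tested, a filter taken from the methods. Calls needed a 1.5-fold change and p under 0.05 after Benjamini-Hochberg adjustment. With 2 arrays a side, the smallest exact permutation p is 0.333. The number of arrays limits the precision. Replicate numbers were checked for pairing by the correlation of replicate differences between groups, which ran from -0.121 to 0.186, so they were not taken as pairs.

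The members and the other gene lists were chosen with earlier results of these data known. Members called in any comparison are given on every array. Some uncalled members are also given on every array and the rest by ranges or group differences, and other genes only where called, at most 4 per list and comparison. Uncalled members of which another probe set passed the call rule are described with it, and some further probe sets were chosen after their values were seen. The roles were assigned after the values were seen, and serve the order of the text. Promoter windows are RefSeq sequences. The fitting was tested on simulated data. Alternatives were the filter, the choice of probe set, normalization, eBayes settings, the groups in the fit, the methods' t-test, the fold minimum, a replicate block and each array left out.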

Additional observations from a re-analysis of the deposited data

How the results depend on the processing

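No member changed direction, under any alternative that was run, in a comparison in which it was called. For the members called in each class, the filter, quantile normalization, shifting arrays to 1 median, trended eBayes and fitting the compared groups alone kept the count within 1.5 times of the reported one. With the replicate number as a replicate block (a paired fit), the counts were 2 heat shock and 2 ER members in M compared to C and 1 and 1 in LPS+M compared to LPS, and no other count or call of a described member changed. With the mean of all probe sets, 0 heat shock and 1 ER member were called in M compared to C and again in LPS+M compared to C. With probe sets that share fewer sequences, 0 heat shock members were called in both of these comparisons, and in LPS compared to M 2 heat shock and 1 ER member fell. The methods' t-test at an unadjusted p called 1 heat shock member in M compared to C, 0 ER members in LPS+M compared to LPS and to M, 0 heat shock members in LPS compared to M, and 0 heat shock and 1 ER member in LPS+M compared to C. After adjustment it called 0 genes in every pairwise comparison. With no fold minimum the heat shock and ER counts were 6 and 6 in M compared to C, 3 and 2 in LPS compared to C, 4 and 5 in LPS+M compared to LPS, 2 heat shock in LPS+M compared to M, 8 and 6 in LPS compared to M, and 6 and 5 in LPS+M compared to C. With a minimum of 2 they were 0 and 0 in M compared to C, 0 ER in LPS+M compared to LPS and to M, and 0 and 1 in LPS+M compared to C. Leaving out 1 array at a time gave 1 to 2 ER members in M compared to C, 0 to 1 in LPS+M compared to M, 0 to 2 heat shock members in LPS+M compared to C (0 without LPS+M replicate 2) and 0 to 1 in the interaction. Over all genes, M compared to C gave 268 higher and 137 lower, and 149 and 104 with the mean of probe sets. In LPS+M compared to LPS the mean of probe sets gave 218 and 153 (376 and 222 as reported), between LPS and M 302 and 361 (409 and 597), and in LPS+M compared to C 314 and 267 (493 and 383). The unadjusted t-test gave 177 and 77 in M compared to C, 205 and 144 in LPS compared to C (282 and 264 as reported), 181 and 107 in LPS+M compared to LPS, 145 and 72 in LPS+M compared to M (213 and 158), 298 and 342 between LPS and M, and 307 and 196 in LPS+M compared to C. In this order of comparisons, no fold minimum gave 1165 and 769, 813 and 1122, 1542 and 1018, 583 and 685, 1281 and 2169, and 1596 and 1489, and a minimum of 2 gave 62 and 23, 126 and 58, 84 and 52, 98 and 38, 156 and 173, and 176 and 92. The interaction gave 3 higher and 18 lower, 0 and 1 with no filter, 14 and 31 with trended eBayes, 3 and 8 with a minimum of 2, and from 0 and 2 without M replicate 2 to 8 and 32 without LPS+M replicate 2. Neither quantile normalization nor shifting arrays moved the split of higher and lower calls by over 10 percentage points in a pairwise comparison. Class medians moved by more than the replicate spread in 53 of their recomputed values. The array background limits genes near the filter such as Hspa1b and Hsf2. The cause of these changes was not tested.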
